A study of Mus musculus with 15 samples.

Results

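The genes described here encode the subunits, regulators and assembly factors of the proteasome. They were taken as every symbol of the form Psma, Psmb, Psmc, Psmd, Psme, Psmf or Psmg followed by a number in the gene annotation of the array, without the interferon-inducible subunits Psmb8, Psmb9 and Psmb10. The annotation held 45 such genes, and 44 of the 22180 genes measured were among them, because Psma4 was on probe sets that it shares with a second gene.

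RNA came from the eyeballs of 2 transgenic lines and their wild type (WT) littermates, R6/1 with WT when 6 months old and R6/2 with WT when 9 weeks old, and the strain label of all samples was C57BL/6J. R6/1 and R6/2 mice carry a transgene for a mutated N-terminal fragment of human huntingtin encoded by exon 1, with 131 ± 3.1 CAG repeats (SD) in R6/1 and 162 ± 2.8 in R6/2. By the labels there were 4 WT and 3 R6/1 arrays at 6 months, and 4 WT and 4 R6/2 arrays at 9 weeks. The methods describe the RNA as pooled into these samples, so that p-values measured the spread between pools and not between single mice.

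The proteasome is the main protease of the cytoplasm and nucleus for proteins tagged with ubiquitin. Its core particle is a barrel of alpha rings, which gate the entrance, and beta rings, which hold the catalytic sites. The regulatory particle sits on the end of the barrel. Its base unfolds the substrate with a ring of ATPases, and its lid removes the ubiquitin chain. Huntingtin with a long polyglutamine stretch forms aggregates that contain ubiquitin, and retinal photoreceptors renew and discard large amounts of protein throughout life.

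Proteasome genes of mammals are known to be driven together by the transcription factor Nfe2l1, which binds the antioxidant response element. The promoters shown here hold the core of this element. They are those of Psmb5 and Psmb6, the catalytic members in which it was found, and of Psmd12, the member with the highest log2 difference between the ages. No promoter of Psmb7, also catalytic, was available to search. The letters TGACNNNGC were searched on both strands in windows from 250 bases before to 50 bases after each RefSeq start site (GRCm38.p6). Capitals mark the match and only bases before the start site are printed.
Psmb5, chr14:54618018-54618058, minus strand, match 47 bases before the start: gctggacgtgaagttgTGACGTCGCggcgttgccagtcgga
Psmb6, chr11:70525332-70525356, plus strand, match 9 bases before the start: ggcggactaaagagagTGACGGAGC
Psmd12, chr11:107479278-107479305, plus strand, match 247 bases before the start and read on the other strand: tctGCTGTGTCAcatttgcccccctcag

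Of the 45 members, 37 had a promoter in the table. Psma8, Psmb1, Psmb2, Psmb7, Psmc3, Psmd3, Psmd7 and Psmg2 had none there. The element core lay in a window of 6 of the 37 (16.2%), Psmb5, Psmb6, Psmc6, Psmd9, Psmd12 and Psme4, against 14.0% of all 27025 genes in the table. The CCAAT box, searched as ATTGG on both strands, lay in a window of 13 of the 37 (35.1%), against 41.1% of all genes. The members with one motif were not those with the other, and the motifs did not overlap. A match of letters is a description and not a binding site.

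Some arrays stood apart. The array labelled WT replicate 4 at 6 months had photoreceptor markers (6 of 7 listed genes measured) at a mean log2 value of 6.53, against 8.32 to 8.74 in the other WT arrays of that age and 6.22 to 6.42 in the R6/1 arrays. Its cone opsin Opn1mw stood at 2.06, against 5.25 to 6.71 and 2.05 to 2.33. The methods give 3 WT and 4 R6/1 samples at this age where the labels give 4 and 3, and which is right was not settled, so the labels were followed. Log2 differences without this array are given where they moved by over 1.5 times for a class or a gene described. The mean of the photoreceptor markers was lower in R6/2 than in WT as well (6.41 to 6.59 against 7.83 to 8.60). Opn1mw, Opn1sw and Arr3 were lower in every R6/2 array than in any WT array of that age (Arr3 3.96 to 4.43 against 5.90 to 7.14). Sag, Gnat1 and Pde6b overlapped (Gnat1 10.62 to 10.83 against 10.63 to 11.04). The mean of the 6 skeletal muscle markers was also lower in R6/2 (5.43 to 6.88 against 7.52 to 7.97). At 6 months it was 7.25, 6.51 and 6.08 in R6/1, against 7.89, 8.19 and 7.55 in WT replicates 1 to 3. The array labelled WT replicate 4 had 5.66, the lowest of its age. The part of these markers in the results was not tested. The mean of the 6 lens markers (the crystallins Crygs, Cryba1, Crybb2 and Cryaa with Lim2 and Mip) was 8.48 to 9.12 in every array, and Lim2, the dimmest of them, was at 4.46 to 5.96. A lower value in such a mixture cannot distinguish fewer cells of a type from less RNA per cell.

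WT replicate 3 at 6 months was the lowest of the 7 arrays of its age for 30 of the 44 members, where 31.5% of all genes were lowest. Its mean over the members was 5.06, against 5.36, 5.42 and 5.38 in the other WT arrays of that age and 5.33, 5.42 and 5.20 in R6/1. This array also had the narrowest spread of log2 values over all probe sets (interquartile range 2.17). R6/1 replicate 3 came next (2.26), against 2.53 to 2.58 in the other arrays of that age. R6/1 replicate 3 lay above the mean of the rest of its group for 7 of 44 members, where it did for 41.2% of all genes. After quantile normalization, which gives every array the same spread, WT replicate 3 was lowest for 9 of 44. WT replicate 4 at 9 weeks was the highest of the 8 arrays of its age for 28 of 44 members (27 after quantile normalization), where 18.6% of all genes were highest. Means over the members at 9 weeks were 5.25, 5.43, 5.17 and 5.61 in WT, and 5.29, 5.27, 5.31 and 5.28 in R6/2. The spread between WT pools (SD 0.20, n = 4) was thus larger than that between R6/2 pools (SD 0.02, n = 4), and the R6/2 values all lay inside the WT range.

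A list of 7 genes of lipid synthesis and of the glands behind the eye (7 measured, none with a log2 value of 0) had a mean of 6.11, 7.82, 4.51 and 7.84 in WT replicates 1 to 4 at 9 weeks. Replicates 2 and 4, with the highest proteasome means, were the highest for each of the 5 lipid genes Elovl3, Fasn, Scd1, Scd3 and Acly. Of the gland genes, Lcn11 was lowest in replicate 4 (2.43, against 2.68 and 2.96 in replicates 1 and 3) and Dcpp1 stood between 1.46 and 2.02 in these arrays. In R6/2 the mean over the list was 4.72, 4.24, 5.47 and 6.27, and at 6 months it was 4.05 to 4.81. Without WT replicates 2 and 4 the median difference of the members between R6/2 and WT was 0.09 in place of -0.10, and the part of these genes in it was not tested.

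**Figure D1:**
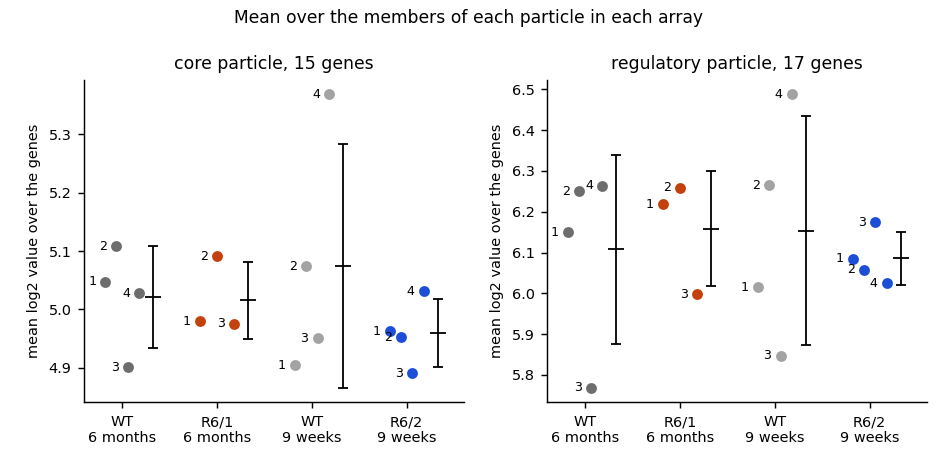
Mean log2 value over the 15 measured core particle genes (left) and the 17 regulatory particle genes (right) in each array, with the replicate number beside the point; black bars are the group mean ± SD. WT replicate 4 at 9 weeks is highest in both panels, WT replicate 3 at 6 months is lowest on the right (5.77), and on the left it lies beside R6/2 replicate 3 at the bottom (4.90 and 4.89).

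**Figure D2:**
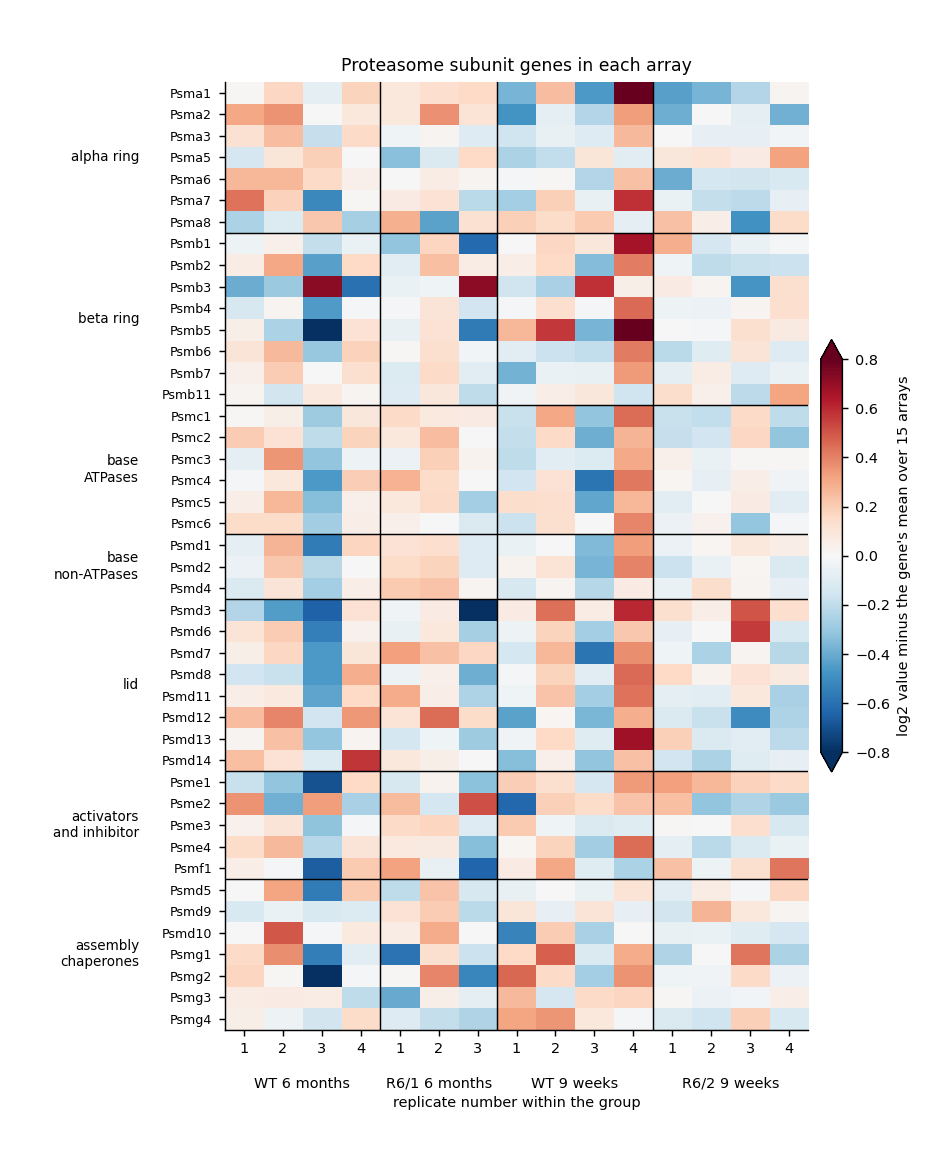
Log2 value of each of the 44 members in each of the 15 arrays, as the deviation from the gene's own mean over all arrays (colour scale, log2; values beyond ± 0.8 take the end colour). Columns are replicates within the 4 groups and rows are ordered by class; the column of WT replicate 3 at 6 months is mostly blue and that of WT replicate 4 at 9 weeks mostly red, and no group is of 1 colour.

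The first comparison asked whether the eyes of R6/1 mice at 6 months had other levels of these transcripts than WT. No member passed the test (limma, unadjusted p under 0.05 with Benjamini-Hochberg adjusted p under 0.20 over all 22180 genes), where 0.00902% of all genes were called, and 0 of 44 had an unadjusted p under 0.05, where 3.1% of all genes did. The lowest adjusted p over the members was 1.00. Of the members, 22 were higher and 22 lower in R6/1, with a median log2 difference of 0.01, against 0.01 over all genes. Differences ran from -0.19 for Psmb1 to 0.35 for Psmb3. Of the 44 intervals (95%), 37 (84.1%) lay within a 1.5-fold change either way, where 81.1% of the intervals of all genes did. All 44 lay within a 2-fold change, where 97.6% of those of all genes did, so that no interval of a member reached a 2-fold difference. Without the array labelled WT replicate 4 the median was 0.07 and 0 members were called, where 0.234% of all genes were. The median turned to -0.09 without WT replicate 3 and to -0.07 without R6/1 replicate 2, so that its sign rested on single arrays.

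At 9 weeks the same question was asked of R6/2 mice. Again 0 of 44 members were called, where 0.0766% of all genes were. An unadjusted p under 0.05 was found for 1 member (2.27%), where it was found for 7.81% of all genes. The lowest adjusted p over the members was 0.635. Here 31 of 44 members (70.5%) were lower in R6/2, against 45.3% of all genes, and the median log2 difference was -0.10, against 0.02. Differences ran from -0.34 for Psma1 to 0.26 for Psma5. Of the intervals, 36 (81.8%) lay within 1.5-fold, where 80.2% of those of all genes did, and 44 within 2-fold, where 96.0% did. The median was 0.01 without WT replicate 4 alone and 0.09 without WT replicates 2 and 4.

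Arrays of the groups compared seldom separated. R6/1 lay wholly above WT for 1 member, Psmd7, where 1.46% of all genes did, and wholly below for 0 members, where 1.68% did. These counts included the array labelled WT replicate 4. Without it R6/1 also lay wholly above WT for Psmc1 and wholly below for Psma6 and Psmg3. The share of all genes without that array was not counted. R6/2 lay wholly above WT for 0 members, where 3.54% did, and wholly below for 0, where 1.69% did.

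**Figure D3:**
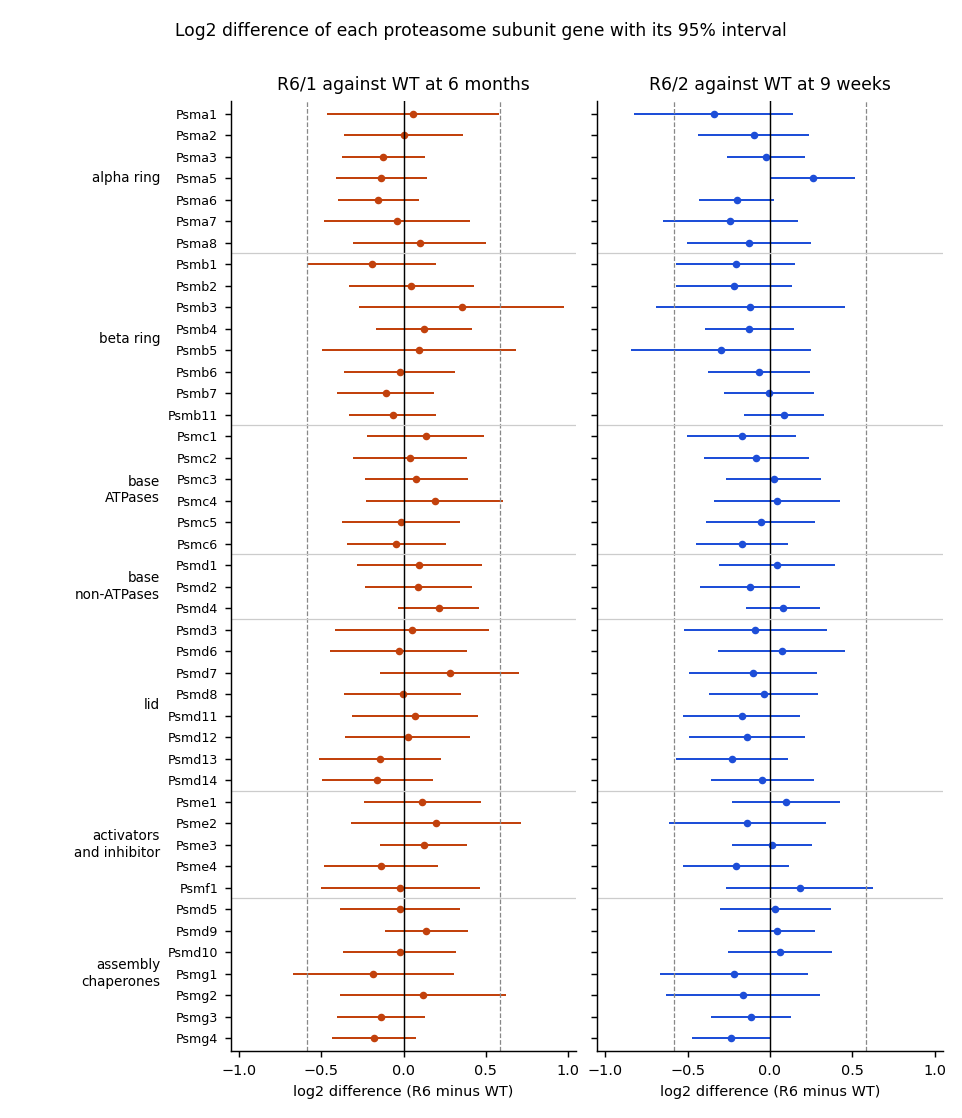
Log2 difference of each of the 44 members between R6/1 and WT at 6 months (left) and between R6/2 and WT at 9 weeks (right), with the 95% interval from the limma fit; dashed lines mark a 1.5-fold change. All intervals cross 0 except that of Psma5 in R6/2, which starts just above it, and on the right 31 of the 44 points lie left of 0.

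The core particle was represented by 15 genes. In R6/1 9 of them were lower and 6 higher, with a median of -0.02, and in R6/2 13 were lower and 2 higher, with a median of -0.13. The 2 higher in R6/2, Psma5 and Psmb11, had mean log2 values under 4, as had Psma8 and Psmb3 among the lower. The median in R6/1 was -0.04 without the array labelled WT replicate 4. The mean over the core genes was 5.02 ± 0.09 in WT (n = 4) and 5.02 ± 0.07 in R6/1 (n = 3), and 5.07 ± 0.21 in WT (n = 4) and 4.96 ± 0.06 in R6/2 (n = 4; SD).

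Among the 7 measured genes of the alpha ring, Psma6 had the lowest value in R6/1 relative to WT. Its log2 values in the order of the replicates were 6.16, 6.17, 6.05 and 5.94 in WT and 5.90, 5.96 and 5.92 in R6/1 at 6 months. They were 5.88, 5.91, 5.66 and 6.13 in WT and 5.50, 5.75, 5.75 and 5.78 in R6/2 at 9 weeks. The R6/1 values lay around the lower end of the WT range, which was the array labelled WT replicate 4, and all lay below WT replicates 1 to 3. R6/2 replicate 1 stood below all other arrays. The difference was -0.16 (95% interval -0.40 to 0.09) in R6/1 and -0.20 (95% interval -0.43 to 0.03) in R6/2 (unadjusted p = 0.0788, adjusted p = 0.688).

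Psma1 had the lowest difference in R6/2, without passing the test. Log2 values of this subunit of the outer ring were 4.58, 4.74, 4.50 and 4.75 in WT and 4.66, 4.70 and 4.73 in R6/1 at 6 months. They were 4.20, 4.82, 4.12 and 5.51 in WT and 4.14, 4.20, 4.34 and 4.60 in R6/2 at 9 weeks. At 9 weeks WT replicate 4 stood apart at the top, and WT replicates 1 and 3 lay at the lower end, beside R6/2 replicates 1 and 2. The difference was -0.34 (95% interval -0.83 to 0.14) in R6/2 (unadjusted p = 0.153, adjusted p = 0.787), against 0.05 (95% interval -0.47 to 0.58) in R6/1 (0.09 without the array labelled WT replicate 4). Without WT replicates 2 and 4 at 9 weeks the difference in R6/2 turned to 0.16.

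Psma5 was the only member with an unadjusted p under 0.05 in a model comparison. Its log2 values were 2.52, 2.74, 2.84 and 2.65 in WT and 2.31, 2.53 and 2.81 in R6/1 at 6 months. They were 2.40, 2.45, 2.75 and 2.56 in WT and 2.74, 2.76, 2.72 and 2.97 in R6/2 at 9 weeks. R6/2 replicates 1 to 3 lay beside the highest WT array and replicate 4 above it. The difference in R6/2 was 0.26 (95% interval 0.00 to 0.52) with unadjusted p = 0.048, adjusted p = 0.635. A second probe set of Psma5 gave a difference of 0.04 in R6/2 and of 0.24 in R6/1, where the first gave -0.14, so the probe sets disagreed. Both had a mean log2 value under 4.

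Psma7 and Psma8 encode alternative forms of one position of the ring, and Psma8 is the form of the testis. The log2 difference of Psma7 (± SE) was -0.04 ± 0.21 in R6/1 and -0.24 ± 0.19 in R6/2. For Psma8 it was 0.10 ± 0.19 (0.04 without the array labelled WT replicate 4) and -0.13 ± 0.18, and its mean log2 value was under 4. Neither form passed the test.

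Psma4, left out of the tests, is on a probe set that also matches AY074887. The arrays gave log2 values of 6.28 ± 0.29 in WT and 6.28 ± 0.07 in R6/1 at 6 months (SD, n = 4 and 3), and 6.35 ± 0.42 in WT and 6.25 ± 0.06 in R6/2 at 9 weeks (n = 4 each). The groups overlapped at both ages.

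The catalytic sites of the beta ring belong to Psmb5 (chymotrypsin-like), Psmb6 (caspase-like) and Psmb7 (trypsin-like). Psmb5 had log2 values of 4.88, 4.58, 3.87 and 4.95 in WT and 4.78, 4.95 and 4.27 in R6/1 at 6 months. At the younger age they were 5.10, 5.40, 4.46 and 5.74 in WT and 4.83, 4.82, 4.96 and 4.90 in R6/2 at 9 weeks. The R6/2 arrays lay close together, below WT replicates 1, 2 and 4 and above WT replicate 3. Its difference was 0.09 (95% interval -0.50 to 0.69) in R6/1 and -0.30 (95% interval -0.84 to 0.25) in R6/2. Psmb6 differed by -0.02 ± 0.16 (± SE) in R6/1 and -0.07 ± 0.15 in R6/2. Psmb7 differed by -0.11 ± 0.14 and -0.01 ± 0.13. Without the array labelled WT replicate 4 the R6/1 difference was 0.22 for Psmb5 and 0.02 for Psmb6. The intervals of all these catalytic subunits included 0.

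Psmb3, a subunit without a catalytic site, had the highest difference of all members in R6/1, without passing the test. Its mean log2 value was under 4 and its spread within groups was the largest of all members (SD 0.44). Log2 values for it were 3.29, 3.39, 4.41 and 3.09 in WT and 3.63, 3.65 and 4.40 in R6/1 at 6 months. They were 3.53, 3.43, 4.27 and 3.73 in WT and 3.75, 3.71, 3.21 and 3.81 in R6/2 at 9 weeks. The high values were those of replicate 3 in WT at 6 months, in R6/1 and in WT at 9 weeks, the arrays with the narrowest interquartile ranges of their groups (2.17, 2.26 and 2.43), and the lowest at 9 weeks was R6/2 replicate 3, the array with the widest range of all (2.61). Whether the width of the range had a part in these values was not tested. The difference was 0.35 (95% interval -0.27 to 0.97) in R6/1 (unadjusted p = 0.247, adjusted p = 1) and -0.12 (95% interval -0.69 to 0.46) in R6/2. It was 0.20 in R6/1 without the array labelled WT replicate 4, below the 0.33 of Psmd7.

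Psmb4, another structural subunit, had log2 values of 4.92, 5.07, 4.60 and 5.04 in WT and 5.04, 5.15 and 4.90 in R6/1 at 6 months. They were 5.04, 5.19, 5.04 and 5.50 in WT and 5.01, 5.00, 5.07 and 5.19 in R6/2 at 9 weeks. WT replicate 3 at 6 months was lowest and WT replicate 4 at 9 weeks highest. Its difference was 0.12 ± 0.14 (± SE) in R6/1 and -0.13 ± 0.13 in R6/2. Psmb1, structural as well, was lowest of the class in R6/1 at -0.19 ± 0.18.

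Psmb11 is the catalytic subunit of the thymus. Array by array, its log2 values were 1.85, 1.68, 1.90 and 1.85 in WT and 1.72, 1.92 and 1.62 in R6/1 at 6 months. They were 1.80, 1.88, 1.92 and 1.66 in WT and 1.97, 1.87, 1.62 and 2.14 in R6/2 at 9 weeks. All 15 values lay between 1.62 and 2.14 and all groups overlapped. The difference was -0.07 ± 0.12 in R6/1 and 0.08 ± 0.12 in R6/2, the highest of the ring there.

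The regulatory particle was represented by 17 genes. In R6/1 6 were lower and 11 higher, with a median log2 difference of 0.05, and in R6/2 12 were lower and 5 higher, with a median of -0.08. Leaving out the array labelled WT replicate 4 gave a median of 0.09 in R6/1. Means over the 17 genes were 6.11 ± 0.23 in WT and 6.16 ± 0.14 in R6/1 (SD, n = 4 and 3), and 6.15 ± 0.28 in WT and 6.09 ± 0.06 in R6/2 (n = 4 each), so that the groups differed by less than the spread between WT arrays.

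The ATPases Psmc1 to Psmc6 form the unfolding ring. Log2 values of Psmc1 were 6.49, 6.53, 6.20 and 6.57 in WT and 6.64, 6.56 and 6.55 in R6/1 at 6 months. They were 6.30, 6.79, 6.17 and 6.93 in WT and 6.31, 6.28, 6.64 and 6.28 in R6/2 at 9 weeks. R6/2 replicate 3 stood apart above its group, inside the WT range. Its difference was 0.13 (95% interval -0.23 to 0.49) in R6/1 and -0.17 (95% interval -0.50 to 0.16) in R6/2. Over the ring, differences ran from -0.04 for Psmc6 to 0.19 for Psmc4 in R6/1, and from -0.17 for Psmc6, with Psmc1 at the same value, to 0.04 for Psmc4 in R6/2.

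Psmd4, a ubiquitin receptor of the base, had the lowest p of all members in R6/1. Its log2 values were 5.87, 6.08, 5.71 and 6.03 in WT and 6.19, 6.21 and 6.01 in R6/1 at 6 months. They were 5.85, 6.01, 5.75 and 6.05 in WT and 5.93, 6.12, 6.01 and 5.92 in R6/2 at 9 weeks. R6/1 replicates 1 and 2 lay above all WT arrays and replicate 3 among them. The difference was 0.21 (95% interval -0.03 to 0.46) in R6/1 (unadjusted p = 0.0842, adjusted p = 1) and 0.08 (95% interval -0.15 to 0.30) in R6/2. Spread within groups was smallest for this gene of all members (SD 0.13, against a median of 0.23 over the members and of 0.20 over all genes). The scaffold subunits Psmd1 and Psmd2 differed by 0.10 ± 0.18 and 0.09 ± 0.15 in R6/1 and by 0.04 ± 0.17 and -0.12 ± 0.14 in R6/2 (± SE). Psmd1 differed by 0.17 in R6/1 without the array labelled WT replicate 4.

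In the lid, Psmd7, the structural partner of the deubiquitinase, was the only member whose R6/1 and WT arrays did not overlap when all arrays were kept. The arrays gave log2 values of 7.15, 7.27, 6.65 and 7.20 in WT and 7.43, 7.34 and 7.27 in R6/1 at 6 months. They were 6.97, 7.37, 6.52 and 7.48 in WT and 7.07, 6.85, 7.13 and 6.89 in R6/2 at 9 weeks. The lowest R6/1 array and the highest WT array were both 7.27 when rounded, and WT replicate 3 lay farthest from the others at 6.65. The difference was 0.28 (95% interval -0.14 to 0.70) in R6/1 (unadjusted p = 0.176, adjusted p = 1) and -0.10 (95% interval -0.49 to 0.29) in R6/2.

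Psmd14 is the deubiquitinase of the lid. Log2 values for it were 5.39, 5.27, 5.04 and 5.73 in WT and 5.24, 5.20 and 5.16 in R6/1 at 6 months. They were 4.82, 5.20, 4.84 and 5.39 in WT and 5.00, 4.91, 5.06 and 5.09 in R6/2 at 9 weeks. The R6/1 arrays lay close together inside the WT range, whose top was the array labelled WT replicate 4. The difference was -0.16 ± 0.16 (± SE) in R6/1, the lowest of the lid, and -0.05 ± 0.15 in R6/2. Without that array it was -0.04 in R6/1, and Psmd13 was the lowest at -0.14. Psmd13, a structural lid subunit, was lowest of the lid in R6/2 at -0.23 ± 0.16, and Psmd6 highest at 0.07 ± 0.18.

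Activators bind the ends of the core in place of the regulatory particle. Psme1 and Psme2 form the one induced by interferon gamma, Psme3 forms a nuclear one, Psme4 a large single-chain one, and Psmf1 is an inhibitor. Psmf1 had log2 values of 4.67, 4.61, 3.96 and 4.82 in WT and 4.94, 4.56 and 3.98 in R6/1 at 6 months. They were 4.68, 4.93, 4.52 and 4.36 in WT and 4.85, 4.57, 4.74 and 5.04 in R6/2 at 9 weeks. Replicate 3 of both groups at 6 months stood below all the other arrays. Its difference was -0.02 (95% interval -0.50 to 0.46) in R6/1 and 0.18 (95% interval -0.27 to 0.63) in R6/2, the highest of the class there. The highest of the class in R6/1 was Psme2 at 0.19 ± 0.24 (± SE), and Psme4 was lowest in both, at -0.14 ± 0.16 and -0.21 ± 0.15. Without the array labelled WT replicate 4 the R6/1 difference was 0.08 for Psmf1, 0.10 for Psme2 and 0.25 for Psme1, then the highest.

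Assembly chaperones build the particles and leave them when they are complete. Psmg1 to Psmg4 serve the core, and Psmd5, Psmd9 and Psmd10 the base. Psmg4 came closest to the threshold on the side of lower values in both models. Array by array, its log2 values were 2.62, 2.53, 2.42 and 2.72 in WT and 2.47, 2.38 and 2.33 in R6/1 at 6 months. They were 2.89, 2.93, 2.65 and 2.56 in WT and 2.46, 2.41, 2.76 and 2.45 in R6/2 at 9 weeks. R6/1 values were the lowest or near the lowest of their age and R6/2 replicate 3 stood apart from the other R6/2 arrays, inside the WT range. The difference was -0.18 (95% interval -0.44 to 0.08) in R6/1 (unadjusted p = 0.158, adjusted p = 1) and -0.24 (95% interval -0.47 to 0.00) in R6/2 (unadjusted p = 0.052, adjusted p = 0.642), with a mean log2 value under 4.

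Psmg3 had log2 values of 3.79, 3.79, 3.79 and 3.53 in WT and 3.33, 3.78 and 3.66 in R6/1 at 6 months. They were 3.99, 3.60, 3.88 and 3.90 in WT and 3.74, 3.69, 3.70 and 3.78 in R6/2 at 9 weeks. WT replicates 1 to 3 at 6 months were equal when rounded and the array labelled WT replicate 4 stood below them. Its difference was -0.14 ± 0.12 (± SE) in R6/1 and -0.11 ± 0.12 in R6/2. Psmg1 was lowest of the class in R6/1 at -0.18 ± 0.23, Psmd9 highest there at 0.14 ± 0.12, and Psmd10 highest in R6/2 at 0.06 ± 0.15. The mean log2 values of Psmg3, Psmg1 and Psmd9 were under 4.

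Whether the models differed was tested by subtracting the R6/2 effect from that of R6/1. No member was called, where 0% of all genes were, and 1 had an unadjusted p under 0.05 (2.27%), where 3% of all genes did. This was Psma5, at -0.40 (95% interval -0.77 to -0.02) with unadjusted p = 0.0412, adjusted p = 1. Of the members, 34 had a higher change in R6/1 and 10 a lower one (22.7%), where 52.6% of all genes had a lower one. The median was 0.09, against -0.01 over all genes. It was -0.0045 without WT replicate 4 at 9 weeks, 0.01 without WT replicate 3 at 6 months and -0.09 without WT replicates 2 and 4 at 9 weeks. Among those with the lowest p in either direction, the difference was 0.38 ± 0.27 for Psmd7, 0.31 ± 0.23 for Psmc1, 0.25 ± 0.19 for Psmb4, -0.15 ± 0.17 for Psmb11 and -0.20 ± 0.31 for Psmf1 (± SE). Without the array labelled WT replicate 4 at 6 months that of Psmf1 was -0.10.

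WT mice of both ages allowed a comparison of 6 months with 9 weeks. These were separate cohorts, so that age and cohort cannot be told apart, and 9.57% of all genes were called. Of the members 1 was called (2.27%), and 4 had an unadjusted p under 0.05 (9.09%), where 16.1% of all genes did. At 6 months 29 members (65.9%) were lower and 15 higher than at 9 weeks, where 50.3% of all genes were lower. The median log2 difference was -0.04, against 0.00 over all genes. The median was 0.01 with quantile normalization or with each array's interquartile range in the model, and 0.02 with array weights. It was 0.06 without WT replicate 3 at 6 months, 0.04 without WT replicate 4 at 9 weeks and -0.07 without the array labelled WT replicate 4 at 6 months, so that its sign rested on the scaling and on single arrays.

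The member called was Psmd3, a structural subunit of the lid. Its log2 values were 4.56, 4.34, 4.14 and 4.90 in WT and 4.76, 4.86 and 3.99 in R6/1 at 6 months. They were 4.85, 5.23, 4.85 and 5.39 in WT and 4.91, 4.84, 5.29 and 4.92 in R6/2 at 9 weeks. WT replicates 1 to 3 at 6 months lay below all WT arrays at 9 weeks and the array labelled replicate 4 among them. Psmd3 fell to 0.661 times its level at 9 weeks, a log2 difference of -0.60 (95% interval -1.03 to -0.16) with unadjusted p = 0.0103, adjusted p = 0.16. The call was lost without WT replicate 1, 2 or 3 at 6 months (adjusted p 0.233, 0.288 and 0.226) or WT replicate 2 or 4 at 9 weeks (0.334 and 0.352), and the difference stayed between -0.74 and -0.48 when single arrays were left out. Without WT replicates 2 and 4 at 9 weeks together it was -0.37 (adjusted p = 0.679). In R6/2, where the mean of the lipid and gland list was 4.24 to 6.27, Psmd3 was at 4.84 to 5.29. The R6/2 arrays are outside the comparison of the ages, and the part of the lipid and gland genes in the difference was not tested.

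Psmb5 differed as much as Psmd3 but with a wider spread, by -0.61 (95% interval -1.15 to -0.06) (unadjusted p = 0.0324, adjusted p = 0.252). Its lowest WT array at 6 months was replicate 3 and its highest at 9 weeks was replicate 4. Psme1 had log2 values of 5.82, 5.67, 5.29 and 6.15 in WT and 5.86, 6.02 and 5.66 in R6/1 at 6 months. They were 6.19, 6.12, 5.86 and 6.33 in WT and 6.32, 6.26, 6.17 and 6.14 in R6/2 at 9 weeks. WT replicates 1 to 3 at 6 months lay below all WT arrays at 9 weeks, and replicate 4 among them. The difference between the ages was -0.39 (95% interval -0.72 to -0.06) (unadjusted p = 0.0231, adjusted p = 0.218). Without the array labelled WT replicate 4 it was -0.53 (adjusted p = 0.121) and passed the threshold. Psmb4 differed by -0.28 (95% interval -0.55 to -0.02) (unadjusted p = 0.0395, adjusted p = 0.276).

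Psmd12, a structural lid subunit, was the member with the highest difference at 6 months. The arrays gave log2 values of 6.80, 6.95, 6.41 and 6.90 in WT and 6.66, 7.00 and 6.70 in R6/1 at 6 months. They were 6.13, 6.57, 6.19 and 6.85 in WT and 6.44, 6.38, 6.05 and 6.31 in R6/2 at 9 weeks. WT replicates 1, 2 and 4 at 6 months lay above 3 of the 4 WT arrays at 9 weeks, near the remaining one. The difference was 0.33 (95% interval -0.02 to 0.68) (unadjusted p = 0.0638, adjusted p = 0.346). Psmd14 differed by 0.30 (95% interval -0.01 to 0.61), or by 0.18 without the array labelled WT replicate 4 at 6 months, and Psma2 by 0.30 (95% interval -0.03 to 0.64).

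Psmd10, a base chaperone, had log2 values of 4.79, 5.28, 4.78 and 4.87 in WT and 4.84, 5.08 and 4.79 in R6/1 at 6 months. They were 4.25, 4.99, 4.53 and 4.79 in WT and 4.73, 4.73, 4.69 and 4.65 in R6/2 at 9 weeks. WT replicate 2 at 6 months was the highest and WT replicate 1 at 9 weeks the lowest array. Its difference between the ages was 0.29 (95% interval -0.03 to 0.61). These higher values did not pass the test on the deposited scale. With quantile normalization of all arrays 7 of 44 members (15.9%) were called, where 17.3% of all genes were. These were the lower Psmb5, Psmd3 and Psme1 and the higher Psma2, Psmd10, Psmd12 and Psmd14.

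**Figure D4:**
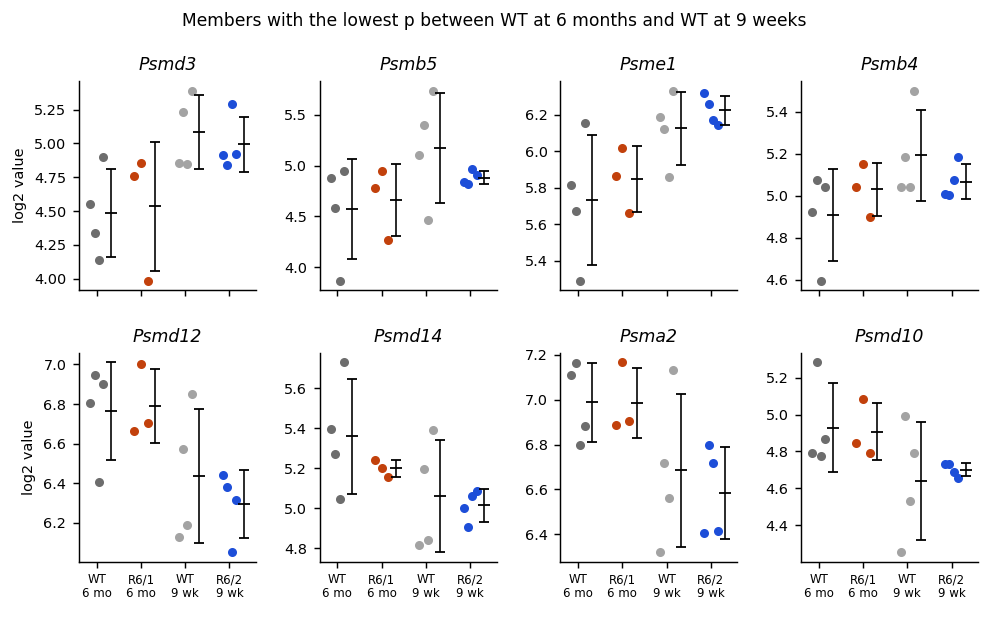
Log2 values by array of the members with the lowest p between WT at 6 months and WT at 9 weeks, 4 lower at 6 months (top) and 4 higher (bottom), in all 4 groups; points are arrays and black bars the group mean ± SD, and each panel has its own axis. For Psmb5 and Psmd10 WT at 9 weeks shows a wide spread of replicates 1 to 4 (SD 0.54 and 0.32), while R6/2 arrays of the same age lie close together (0.07 and 0.04). For Psme1 and Psmd3 the spread of WT at 9 weeks (0.20 and 0.27) is below that of WT at 6 months (0.36 and 0.33).

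Psmb8, Psmb9 and Psmb10 replace the catalytic subunits when cells meet interferon. Their differences were 0.05 ± 0.15, 0.01 ± 0.15 and 0.02 ± 0.15 in R6/1 (± SE), and 0.15 ± 0.14, 0.13 ± 0.14 and 0.27 ± 0.14 in R6/2, with 0 of 3 called in either. In R6/1 they were 0.02, -0.06 and 0.09 without the array labelled WT replicate 4. For Psmb10 the log2 values were 4.74, 4.49, 4.37 and 4.59 in WT and 4.76, 4.70, 4.99 and 4.80 in R6/2 at 9 weeks. All R6/2 arrays lay above 3 of the 4 WT arrays, and the test gave unadjusted p = 0.0711, adjusted p = 0.678.

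Of 30 listed genes that regulate the proteasome or bring substrates to it, 21 were measured. In R6/1 9 were lower and 12 higher, with a median of 0.05 (0.08 without the array labelled WT replicate 4), and in R6/2 14 were lower and 7 higher, with a median of -0.05; 0 of 21 were called in either. Nfe2l1, the transcription factor of proteasome genes, had log2 values of 5.73, 5.63, 5.20 and 5.51 in WT and 5.90, 5.75 and 5.35 in R6/1 at 6 months. They were 5.58, 5.99, 5.31 and 6.14 in WT and 5.63, 5.46, 5.53 and 5.37 in R6/2 at 9 weeks. As for the subunits, WT replicates 2 and 4 were the highest at 9 weeks. Its difference was 0.15 (95% interval -0.25 to 0.55) in R6/1 and -0.26 (95% interval -0.63 to 0.12) in R6/2, and 0.41 (95% interval -0.14 to 0.96) between the models (unadjusted p = 0.137, adjusted p = 1). Without WT replicates 2 and 4 the difference in R6/2 was 0.05.

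Pomp, which completes the core particle, differed by -0.03 ± 0.16 (± SE) in R6/1 and -0.15 ± 0.15 in R6/2, and by -0.07 in R6/1 without the array labelled WT replicate 4. Ngly1, the enzyme that strips sugars from Nfe2l1, differed by -0.32 ± 0.21 in R6/2. The autophagy receptor Sqstm1 differed by 0.24 ± 0.14 in R6/1, and the shuttle factors Ubqln4 and Ubqln1 by 0.14 ± 0.16 in R6/1 and -0.40 ± 0.27 in R6/2. Between the ages 1 of 21 was called, where 9.57% of all genes were. This was Zfand5, a protein that binds ubiquitin and the proteasome, which rose by 0.22 ± 0.08 (unadjusted p = 0.0159, adjusted p = 0.185). This call held without R6/1 replicate 3 or WT replicate 3 at 9 weeks and was lost without any other single array (adjusted p of 0.201 and above), at differences of 0.18 to 0.24. Ubqln1 and Txnl1, a thioredoxin of the proteasome, differed by -0.60 ± 0.27 and -0.41 ± 0.16, and did not pass the threshold.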

How the data were processed

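The authors hybridised RNA of 15 eyeball samples to Affymetrix arrays of the type Mouse Gene 2.1 ST. They ran RMA (affy library), which removes background, normalizes and summarizes probes, and deposited log2 values for 41345 probe sets. The labels and the methods name different labelling kits. Background levels per probe set were not used here, and the number of arrays limits the precision. Of the probe sets, 23521 have 1 gene symbol in the platform annotation, 1820 several and 16004 none. Each of 22180 genes took its single-symbol probe set with the highest mean; levels of different probe sets were not compared. Group means over all 15 arrays were fitted with limma 3.58.1 (R 4.3.3) and eBayes, the test and threshold of the methods, without their variance filter, whose limit they do not state; keeping the 50% of genes with the higher interquartile range left 28 of 44 members. Scripts were tested on simulated data.

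Members and lists were chosen with earlier results of these data known. Array values were given for members called in any comparison and for the 3 lowest p per direction and comparison; the highest and lowest of each class in each model comparison, paralogs, catalytic subunits and the 3 lowest p of the regulator list were named as well. Psma2 was named after its values were seen.

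Deviations from the group means correlated between same-numbered samples at 6 months (0.37, 0.33 and 0.72), above 0.1 in every pair. By that rule alone, numbers were taken to pair the samples there for the replicate block. Replicates 1 and 2 of different number correlated nearly as well (0.29 and 0.23). So did WT replicate 4, which has no partner, with R6/1 replicates 1 and 2 (0.23 and 0.29). Pairs of a replicate 3 with another number were negative (-0.53 to -0.37). Only the pair of number 3 thus stood out, and whether numbers 1 and 2 pair the samples was not settled. At 9 weeks same-numbered samples did not correlate in this way (0.08, -0.25, -0.22 and 0.21). Alternatives were the threshold, genes tested, arrays fitted, probe set rule, empirical Bayes setting, normalization, array weights, spread as a covariate, a filter on low values, the label of 1 array, a replicate block and arrays left out.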

Additional observations from a re-analysis of the deposited data

Results flagged for a closer look

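In 4 of 57 groups of 4 arrays examined, for the 18 members whose array values were selected and for the mean over all measured members, 1 array lay far from the others, where chance flags about 1 in 20. The measure is the gap to the nearest other array as a share of the range of the group. Psma6 was lowest in R6/2 replicate 1, at a log2 value of 5.50 (share 0.889). Psmc1 was highest in R6/2 replicate 3, at 6.64 (0.9192). Psmg4 was highest in the same array, at 2.76 (0.8683). Psmg3 was lowest in the array labelled WT replicate 4 at 6 months, at 3.53 (0.9842).

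Psma1 was above the WT mean of its age in all R6/1 arrays and below it in all R6/2 arrays. The change in R6/1 exceeded that in R6/2 by 0.3967 on the log2 scale (limma, unadjusted p = 0.254, 95% interval -0.32 to 1.11), and the difference in R6/2 was 0.16 without WT replicates 2 and 4 at 9 weeks.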

How the results depend on the processing

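Counts of called members stayed at 0 for R6/1 and for the difference between the models under every alternative run, and for R6/2 under all but array weights, where 2 were called (Psma5, higher, and Psmg4, lower; 4.55%, where 8.27% of all genes were). With the replicate block, 0 members were called in either model or between them and the median in R6/1 was 0.07, while 62 genes in all were called in R6/1 and 109 in R6/2, against 2 and 17 without it; the block could not be estimated for the ages. Without WT replicates 2 and 4 at 9 weeks the medians became 0.091 in R6/2, -0.091 between the models and 0.118 between the ages, each opposite in sign to the value over all arrays. The median in R6/1 also turned, to -0.09 without WT replicate 3 and -0.07 without R6/1 replicate 2 (range without single arrays -0.090 to 0.071), and that between the ages was above 0 under quantile normalization, array weights and the interquartile range as a covariate (0.014 to 0.021). The count between the ages, 1 member, varied most, and so did the share of all genes called: 0 at an adjusted p under 0.05 or in a fit of the compared groups only, 2 with WT replicate 4 at 6 months placed among R6/1 or without WT replicates 2 and 4 at 9 weeks (Psma1 and Psmd12; 6.1% and 1.65% of all genes), 3 among the 50% of genes with the higher interquartile range or those with a mean of at least 4 (Psmb5, Psmd3 and Psme1; 19.2% and 24.9% of all genes tested), 4 without both replicates 3 at 6 months (chosen after seeing the data; 18.1%), 6 with array weights (18.9%), and 7 with quantile normalization (17.3%) or the interquartile range as a covariate (20.1%). With single arrays left out it was 0 to 3 (2.62% to 14.7% of all genes): 0 without WT replicate 1 or 2 at 6 months or WT replicate 2 at 9 weeks, 2 without WT replicate 3 or 4 at 6 months, and 3 without WT replicate 3 at 9 weeks. The cause of these shifts was not tested. Signs turned for Psmb3 in R6/1 with WT replicate 4 placed among R6/1 (-0.0016), for Ubqln4 in R6/1 without R6/1 replicate 1 (-0.059; range without single arrays -0.059 to 0.305), for Psmf1 between the models without R6/1 replicate 3 (0.053; range -0.424 to 0.053) and, without WT replicates 2 and 4 at 9 weeks, for Psma1 (0.16), Nfe2l1 (0.054) and Ubqln1 (0.070) in R6/2 and Psmc1 between the models (-0.0060).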
